A study of Mus musculus with 7 samples.

Results

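P2ry12, Tmem119, Sall1, Siglech, Olfml3, Gpr34 and Sparc are 7 genes by which microglia, the resident macrophages of the brain, are usually told from macrophages that enter from the blood. They were taken by name from the 19415 genes listed in the deposited count tables of 7 mouse tumours. Their detection was read in cells with 1 or more unique molecular identifiers (UMIs) of the complement genes C1qa, C1qb and C1qc together, called C1q-positive cells here. The tumours are atypical teratoid rhabdoid tumours, aggressive brain tumours driven by loss of Smarcb1, which belongs to the SWI/SNF chromatin remodeller. All arose in the mouse line Rosa26-creERT2::Smarcb1 fl/fl, in which tamoxifen (50 mg/kg at day 6.5 post coitum) activates a Cre recombinase expressed from the ubiquitous Rosa26 locus, so the animals of every group were of the same line and treatment. Recombination in the macrophages was not measured.

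By their labels 5 of the tumours belong to a MYC subgroup and 2 to an SHH subgroup. The basal cerebrum gave MYC replicates 1 and 5 (12 and 27 weeks of age), the trigeminal nerve MYC replicates 2 and 4 (19 and 21 weeks) and the lateral cerebellum MYC replicate 3 (19 weeks). The SHH tumours, at 14 and 16 weeks, were of the striatum with the subventricular zone, a site without a MYC tumour, so subgroup and site cannot be told apart for SHH. The tumours of MYC replicates 2 and 3 share a number in their titles and were counted as 1 animal, which leaves 4 MYC and 2 SHH animals. The other titles carry different numbers, and p-values measure the spread between these animals.

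Microglia enter the brain early in development, and their identity depends on signals of the brain itself, including TGF-beta. P2ry12 and Gpr34 are G protein-coupled receptors of the microglial surface (P2ry12 senses ADP and guides the processes towards injury), Tmem119 is a transmembrane protein, and Sall1 is a zinc finger transcription factor that maintains the microglial state. Siglech is a sialic acid-binding receptor shared with plasmacytoid dendritic cells. Olfml3 and Sparc encode secreted matrix proteins that other cells, among them fibroblasts, also make.

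In the annotation of GRCm38 (GENCODE vM21) the 7 are protein-coding genes. P2ry12 spans chr3:59216272-59262871 on the minus strand, Olfml3 chr3:103722222-103738001 (minus), Tmem119 chr5:113793729-113800516 (minus) and Siglech chr7:55768178-55778925 (plus). Sall1 spans chr8:89027235-89044162 (minus), Sparc chr11:55394500-55423183 (minus) and Gpr34 chrX:13632089-13640858 (plus). P2ry12 lies within Med12l and Gpr34 within Cask, both on the opposite strand, and whether reads were counted by strand is not given in the sources used here. In the cells with high C1q defined below, Med12l was at 0 to 20.8 CPM (UMIs of a gene scaled to an equal total per sum of cells) and Cask at 0 to 19.3 CPM over the 7 libraries.

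The promoters of 4 members are shown because these genes were detected together in single cells below while Siglech, Olfml3 and Sparc also appeared outside C1q-positive cells. Each is the 250 bases before the RefSeq start on GRCm38.p6, read 5′ to 3′ on the strand of the gene, and 5 of the 7 members had an entry. Sall1, the other member with an entry, had 3 start sites, and their promoters are not shown. The positions are chr3:59262986-59263235 for P2ry12 (minus strand), chr7:55767934-55768183 for Siglech (plus), chr3:103738002-103738251 for Olfml3 (minus) and chr11:55420081-55420330 for Sparc (minus). Capitals mark the letters AGGAAG on either strand (CTTCCT in reverse), a core bound by ETS family factors, to which the macrophage factor PU.1 belongs.
P2ry12: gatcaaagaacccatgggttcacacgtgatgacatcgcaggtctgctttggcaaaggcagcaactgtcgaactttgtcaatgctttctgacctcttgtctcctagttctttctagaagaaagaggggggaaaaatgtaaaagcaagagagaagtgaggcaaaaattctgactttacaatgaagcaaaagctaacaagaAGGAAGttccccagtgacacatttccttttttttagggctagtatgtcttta
Siglech: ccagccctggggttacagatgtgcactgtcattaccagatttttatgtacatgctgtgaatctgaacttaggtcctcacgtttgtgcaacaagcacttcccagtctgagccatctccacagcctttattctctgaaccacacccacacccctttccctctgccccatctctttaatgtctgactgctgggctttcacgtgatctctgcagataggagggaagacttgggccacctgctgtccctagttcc
Olfml3: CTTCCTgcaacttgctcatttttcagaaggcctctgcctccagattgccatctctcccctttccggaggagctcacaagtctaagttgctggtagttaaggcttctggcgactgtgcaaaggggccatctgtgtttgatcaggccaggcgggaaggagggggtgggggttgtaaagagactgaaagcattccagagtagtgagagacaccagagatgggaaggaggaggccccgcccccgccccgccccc
Sparc: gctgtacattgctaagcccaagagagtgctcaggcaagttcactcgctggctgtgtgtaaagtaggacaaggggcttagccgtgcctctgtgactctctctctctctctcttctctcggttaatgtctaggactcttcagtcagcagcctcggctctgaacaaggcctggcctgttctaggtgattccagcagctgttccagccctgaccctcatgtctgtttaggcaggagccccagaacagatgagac
P2ry12 and Olfml3 held 1 match each, and Siglech and Sparc held none. Of the 3 Sall1 promoters that are not shown, 1 held 1 match. The background was 32851 mouse promoters of the same length on the autosomes, X and Y, with 1 autosome left out. Of these, 29.48% held the letters. The PU.1 core GAGGAA, searched on both strands, was in none of the 4 and in 23.25% of the background promoters. These matches describe letters only and show no binding.

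After filtering, 21899 cells were analysed, 183 to 13392 per library, with a median of 1716 to 9346 UMIs per cell. Of 23719 distinct barcodes, 218 occurred in 2 or more libraries, and none occurred in both libraries of the animal with 2 tumours. C1q-positive cells numbered 13133, but 5035 of the 9225 in MYC replicate 5 held only 1 or 2 C1q UMIs. A stricter class, C1q-high, took cells with 3 or more C1q UMIs that made up at least 0.2% of all UMIs of the cell, and held 5508 cells; the other 7625 C1q-positive cells are called C1q-low. C1q-high cells numbered 32, 11, 18, 217 and 3036 in MYC replicates 1 to 5 and 1839 and 355 in SHH replicates 1 and 2. Csf1r, the receptor that macrophages need to survive, was found in 68.7% to 94.4% of C1q-high cells of each library. Smarcb1 itself was at 20.8 to 68.5 CPM in them, and 3′ end counts do not show whether the deleted part is missing.

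Shares of cells with a UMI depend on depth and on free RNA in the droplets. Each share was therefore also taken after cells were thinned to 1500 UMIs, with cells under that depth left out. It was set beside that of C1q-negative T cells (2 or more UMIs of Cd3d, Cd3e and Cd3g). Whether the UMIs in T cells are free RNA or their own was not tested. Median UMIs of T cells were 1240 to 4418, against 2253 to 5665 in C1q-high cells. Intervals are 95% Wilson intervals and cover counting error only.

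Most UMIs of P2ry12, Sall1, Tmem119 and Gpr34 lay in C1q-high cells, with exceptions among the MYC libraries. Summed over the libraries, 95.9% of P2ry12 UMIs, 94.2% of Sall1 UMIs, 92.0% of Tmem119 UMIs and 90.6% of Gpr34 UMIs lay in C1q-high cells, against 65.0% for Siglech, 47.8% for Olfml3 and 11.2% for Sparc. SHH replicate 1 and MYC replicate 5 hold most of these UMIs. Within single libraries the share in C1q-high cells was 37.5% for P2ry12 in MYC replicate 4 (16 UMIs in all), 10.0%, 33.3% and 28.6% for Gpr34 in MYC replicates 1, 2 and 4 (10, 6 and 35 UMIs), and 37.5% for Sall1 in MYC replicate 5 (8 UMIs). For Tmem119 it was 58.8% or more in each library. The C1q-low cells, though they are C1q-positive, held the same members at low levels. P2ry12 was in 0% to 3.45% of them over the libraries (the highest in MYC replicate 4, where C1q-high cells had 2.76%), Tmem119 in 0% to 8.76% and Sall1 in 0% to 0.435%. The matrix genes behaved otherwise, with Sparc in 9.20% to 89.1% and Olfml3 in 0% to 69.8% of C1q-low cells.

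P2ry12 was present in 18.8% (6 of 32), 18.2% (2 of 11), 55.6% (10 of 18), 2.76% (6 of 217) and 8.63% (262 of 3036) of the C1q-high cells of MYC replicates 1 to 5. It was in 38.7% (712 of 1839) and 40.6% (144 of 355) of those of SHH replicates 1 and 2. The SHH libraries were high and close together, and of the MYC libraries only the cerebellar tumour reached them, with an interval of 33.7% to 75.4%. T cells held P2ry12 in 0% to 0.580% of cells. At 1500 UMIs the shares were 6.25%, 9.09%, 33.3%, 1.11% and 2.73% in MYC and 26.9% and 29.7% in SHH; the order of the libraries at equal depth was close to that of the deposited counts.

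Tmem119 was the member most often seen in MYC tumours. It was in 68.8%, 45.5%, 72.2%, 12.9% and 80.4% of the C1q-high cells of MYC replicates 1 to 5 and in 64.3% and 66.2% of those of SHH replicates 1 and 2, against 0% to 4.89% of T cells. MYC replicate 4 stood low and MYC replicate 5 high, and at 1500 UMIs the latter (53.2%) lay next to both SHH libraries (50.5% and 50.7%). In MYC replicate 5, Tmem119 was thus as frequent as in SHH while P2ry12 was in 2.73% of the same thinned cells.

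Gpr34 followed P2ry12. It was in 3.12%, 9.09%, 55.6%, 4.61% and 10.5% of C1q-high cells of MYC replicates 1 to 5 and in 34.3% and 51.3% in SHH, where T cells held it in 0.912% to 9.09%. In MYC replicate 1 the T cell share (9.09%) was above that of the C1q-high cells, so Gpr34 did not mark C1q-high cells there. Its level in that library was 4.73 CPM in C1q-high cells, 20.4 CPM in T cells and 0 CPM in C1q-negative cells without Ptprc. The source of the Gpr34 UMIs in T cells was not tested.

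Sall1 was seen mostly in SHH tumours. It was in 9.08% of C1q-high cells of SHH replicate 1, 1.41% of SHH replicate 2 and 0.0659% of MYC replicate 5. The tables of MYC replicates 1 to 4 list only genes seen in 3 or more barcodes and do not list it. It was set to 0 there, though fewer than 3 barcodes of each may hold it. MYC replicates 1 to 3 have only 32, 11 and 18 C1q-high cells, so their shares are not shown to be below those of SHH. The level of Sall1 in C1q-high cells was 34.8 CPM in SHH replicate 1, 4.77 CPM in SHH replicate 2 and 0.211 CPM in MYC replicate 5. No T cell held a UMI of it in the libraries that list it.

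Siglech was in 0 of 32, 0 of 11, 7 of 18, 2 of 217 and 57 of 3036 C1q-high cells of MYC replicates 1 to 5, which are 0%, 0%, 38.9%, 0.922% and 1.88%. The first 2 libraries allow shares of up to 9.38% and 27.3%. In SHH replicates 1 and 2 it was in 53.1% and 29.6%. T cells held it in 1.37% of cells in MYC replicate 4 and 0.978% in MYC replicate 5, so Siglech did not mark C1q-high cells of MYC replicate 4. There, T cells with Siglech held a mean of 4.33 UMIs of it, and C1q-high cells with Siglech 1.0. The source of these UMIs was not tested.

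Olfml3 was in 3.12%, 0%, 33.3%, 9.22% and 23.3% of C1q-high cells of MYC replicates 1 to 5 and in 58.8% and 33.5% in SHH, with T cells at 0% to 8.02%; in MYC replicate 1 the T cell share (4.55%) was the higher. Sparc was in 0%, 0%, 44.4%, 4.15% and 31.3% in MYC and in 69.8% and 28.7% in SHH. For Sparc the T cell share differed between libraries, with 54.4% in MYC replicate 5, 18.2% in MYC replicate 1 and 0% to 9.57% in the other libraries. The Sparc share of MYC replicate 5 was below its T cell share at like median depth (4092 and 4418 UMIs). Its level there was 216 CPM in C1q-high cells and 646 CPM in T cells, so Sparc did not mark C1q-high cells. The source of these Sparc UMIs was not tested.

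**Figure D1:**
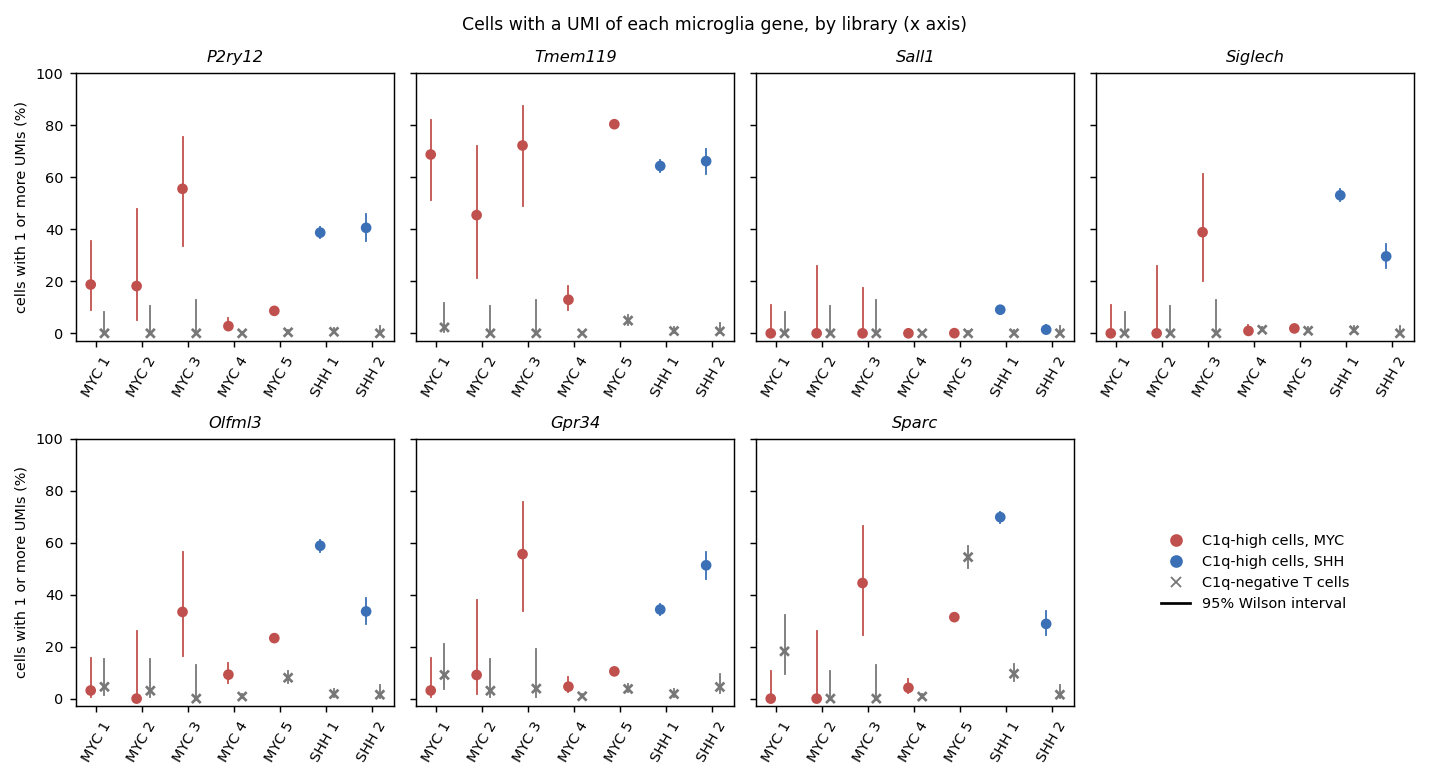
Share of cells with 1 or more UMIs of each gene (y axis, percent) by library (x axis); dots are C1q-high cells (red MYC, blue SHH), crosses are C1q-negative T cells, and lines are 95% Wilson intervals. MYC 3, the cerebellar tumour, lies with the SHH libraries for P2ry12, Siglech and Gpr34, and Tmem119 is frequent in MYC 5 where P2ry12 and Siglech are low.

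The 2 tumours of 1 animal differed in the same way. In the cerebellar tumour (MYC replicate 3) P2ry12 was at 403 CPM in C1q-high cells, Gpr34 at 283 CPM, Siglech at 146 CPM and Sparc at 711 CPM. In the trigeminal tumour of the same animal (MYC replicate 2) the values were 62.3, 41.5, 0 and 0 CPM. Tmem119 was closer, at 343 and 208 CPM. These rest on 18 and 11 cells from 1 animal and were not tested.

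The level of the members in C1q-high cells was then compared between subgroups, with UMIs summed per animal and tested with edgeR's quasi-likelihood test over all 6930 genes that passed the filter on low counts. In this fit 84 genes passed an adjusted p of 0.05, 1.21% of those tested (0.779% higher and 0.433% lower in MYC), and none of the 6 tested members was among them; 938 genes had an unadjusted p under 0.05, among them Siglech, Olfml3, Gpr34 and Sparc. All 6 had lower fitted levels in MYC. By animal, 5 of 6 (not Sparc) did not overlap between the subgroups, where 20.7% of all genes did not. For P2ry12 (283 against 289 normalised CPM) and Gpr34 (198 against 199) the highest MYC animal lay just below the lower SHH animal. That MYC animal sums the cerebellar and a trigeminal library. The cerebellar library alone was at 403 CPM for P2ry12 (SHH 262 and 263) and 283 CPM for Gpr34 (SHH 178 and 338). The DESeq2 test, which passed more genes than edgeR, called Olfml3 alone among the members. Sall1 did not pass the filter.

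P2ry12 was at 44.4, 283, 12.4 and 20.6 normalised CPM in the 4 MYC animals (replicate 1, replicates 2 and 3 summed, replicate 4, replicate 5), and the SHH animals had 294 and 289. The MYC mean was 90.0 ± 129 and the SHH mean 291 ± 3.25 (SD, n = 4 and 2). One MYC animal, that with the cerebellar tumour, came within a few percent of the SHH animals and the other 3 were far below. The log2 fold change was -1.89 ± 0.94 (SE; edgeR adjusted p = 0.429).

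For Siglech the MYC animals, in the same order, had 0, 96.2, 4.12 and 6.64 normalised CPM and the SHH animals 378 and 186 (log2 fold change -4.02 ± 1.04, edgeR adjusted p = 0.0973). Gpr34 was at 4.44, 198, 20.6 and 26.0 in MYC and at 199 and 372 in SHH (-2.42 ± 0.90, adjusted p = 0.252). For both receptors the animal with the cerebellar tumour was again the highest of the MYC animals.

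Olfml3 was at 4.44, 50.9, 43.3 and 70.3 normalised CPM in MYC and at 511 and 180 in SHH (log2 fold change -2.92 ± 0.62, edgeR adjusted p = 0.057). Sparc was at 0, 470, 37.1 and 217 in MYC and at 2482 and 439 in SHH (-3.04 ± 1.15, adjusted p = 0.261). Tmem119 was at 364, 283, 94.8 and 586 in MYC and at 613 and 626 in SHH (-0.89 ± 0.56, adjusted p = 0.567), the smallest difference of the 6.

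Without the cerebellar library, 5 of the 6 members passed, in the fit with 1 library left out that passed the most genes (214). That fit drops the MYC library that lay with the SHH libraries for P2ry12, Siglech and Gpr34. Its animal is then represented by the 11 C1q-high cells of MYC replicate 2 alone. P2ry12 was then lower in MYC by a log2 fold change of -3.51 (edgeR adjusted p = 0.00253), Siglech by -5.75 (0.000497), Gpr34 by -3.77 (0.00217), Olfml3 by -3.10 (0.0277) and Sparc by -4.20 (0.0495), while Tmem119 did not pass (-0.98, adjusted p = 0.511). In that fit 214 genes passed, the most of any fit with 1 library left out, against 84 in the main fit. P2ry12 and Gpr34 each passed in 2 of the 17 alternatives, Siglech in 3, Olfml3 in 5, Sparc in 1 and Tmem119 in 0. Over the 17 alternatives run, adjusted p ranged from 0.00253 to 0.841 for P2ry12, from 0.000497 to 0.465 for Siglech, from 0.00217 to 0.743 for Gpr34, from 0.000389 to 0.691 for Olfml3, from 0.0495 to 1.0 for Sparc and from 0.169 to 0.999 for Tmem119. The direction was lower in MYC in each of them. Without SHH replicate 1, 5 genes passed and no member did.

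In C1q-high cells of the MYC animals Sall1 had 3 UMIs, with 0 taken where it is unlisted. In those of the SHH animals it had 192, of which 187 came from SHH replicate 1 and 5 from SHH replicate 2. With no filter on low counts its adjusted p was 0.00336 (edgeR), in a fit of 17115 genes of which 1.45% passed.

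Over C1q-positive cells, the class of the original rule, shares at 1500 UMIs gave the same order for most members. These cells mix C1q-high and C1q-low cells in unequal parts. C1q-high cells were 32 of 134, 11 of 35, 18 of 61, 180 of 245 and 3036 of 9225 in MYC replicates 1 to 5. In SHH replicates 1 and 2 they were 1504 of 2089 and 300 of 491. The shares over C1q-positive cells thus depend on this mix as well as on the C1q-high cells. P2ry12 was in 2.76% ± 3.03 of cells in MYC and 19.0% ± 0.917 in SHH (SD, n = 4 and 2 animals), Tmem119 in 12.6% ± 4.69 and 33.9% ± 4.17, Gpr34 in 2.86% ± 2.999 and 19.5% ± 5.87, and Siglech in 1.82% ± 1.63 and 18.4% ± 10.4. For these 4 every SHH animal was above every MYC animal, as for Sall1 with unlisted counts taken as 0. The exact two-sided permutation p was 0.0667 for each, the smallest that the 15 splits of 6 animals can give. Olfml3 (8.36% ± 9.17 and 24.4% ± 12.1, exact permutation p = 0.2) and Sparc (26.1% ± 23.9 and 34.8% ± 26.2, p = 0.467) overlapped. The Sparc difference turned to 4.44 percentage points higher in MYC without the trigeminal libraries and to 9.78 higher without SHH replicate 1. In C1q-high cells alone the picture differed for some members. Tmem119 then overlapped (38.0% ± 18.9 and 50.6% ± 0.0953, exact permutation p = 0.533), P2ry12 had an exact permutation p of 0.133 (8.56% ± 10.6 and 28.3% ± 1.94) and Olfml3 did not overlap (6.44% ± 4.65 and 33.5% ± 15.8, exact permutation p = 0.0667). Sall1, Siglech and Gpr34 again gave 0.0667, and Sparc overlapped (exact permutation p = 0.133). The 7 genes and 2 scopes of cells were compared without an adjustment, which could not have brought any p under 0.0667.

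Other gene lists were read in the same comparison, and 1 gene of the 3 lists described here passed. Of 18 other microglia-enriched genes, 16 were tested and none passed, with a median log2 fold change of -1.37 against 0.02 over all genes; all 16 had lower fitted levels in MYC, among them Tgfbr1 (-1.48, edgeR adjusted p = 0.063), Lpcat2 (-1.60, 0.07) and Bin1 (-1.56, 0.142). Of 10 tested monocyte-derived genes 1 passed, S100a4, which encodes a calcium-binding protein (6.97, edgeR adjusted p = 0.0404), and the list's median was 4.81. Of 8 tested genes of border-associated macrophages, which line the meninges and vessels, none passed, with a median of 3.40. Summed in C1q-high cells, the monocyte-derived list was at 938 to 3177 CPM in the MYC libraries and 113 to 187 CPM in the SHH libraries. In the MYC libraries the cerebellar one had 6 of 12 monocyte-derived genes at 0, Ly6c2 among them, in only 18 C1q-high cells. The list still summed to 1713 CPM in the cerebellar library, within the range of the MYC libraries and above both SHH libraries. The part of such cells in the members' levels was not tested.

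Markers of tumour cells moved with the subgroups too. In C1q-high cells the 4 MYC tumour markers summed to 59.96 to 1281 CPM in MYC libraries and 1.91 to 20.4 CPM in SHH libraries. Plac8, which is also on the monocyte-derived list, made up 1262 of 1281 CPM in MYC replicate 4 and 756 of 875 CPM in MYC replicate 1. It made up 20.8 of 62.3 CPM in MYC replicate 2, 8.57 of 59.96 CPM in MYC replicate 3 and all of the sum in SHH replicate 1. The 5 SHH tumour markers summed to 0 to 4.73 CPM in MYC and 161 to 228 CPM in SHH libraries. The part of either set of markers in the members' values was not tested.

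Within the MYC subgroup, the 2 trigeminal libraries were compared with the 2 from the basal cerebrum. No gene of 4138 passed (0 percent; edgeR), where 246 had an unadjusted p under 0.05 and a fit without a filter on low counts called 55 of 16550. Tmem119 was at 160 ± 80.4 normalised CPM in the trigeminal tumours and 512 ± 161 in those of the basal cerebrum (SD, n = 2 and 2), groups that did not overlap, as for 34.1% of all genes; its log2 fold change was -1.79 ± 0.63 (edgeR adjusted p = 0.822). P2ry12 was at 39.3 ± 36.5 and 35.2 ± 18.8 (-0.44 ± 0.90, adjusted p = 0.999), Olfml3 at 23.6 ± 33.4 and 39.9 ± 49.6 (-0.40 ± 0.95, adjusted p = 0.999) and Sparc at 20.3 ± 28.7 and 116 ± 163 (-2.002 ± 1.30, adjusted p = 0.954). Siglech, Gpr34 and Sall1 did not pass the filter. Each group has a library of 32 or fewer C1q-high cells, so only large differences could be seen.

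The next comparison asked how far each member marks C1q-high cells against other immune cells of the same animal, C1q-negative cells with a Ptprc UMI (2355 cells). Here 1317 of 6118 genes passed, 21.5% of those tested, with 12.3% higher and 9.19% lower in C1q-high cells, and 3 of 5 tested members were higher. The classes did not overlap for 5.59% of all genes and for 1 member, Tmem119. Tmem119 was at 474 ± 245 normalised CPM in C1q-high and 8.42 ± 10.0 in C1q-negative immune cells (SD, n = 6 animals each), higher in 6 of 6 animals (log2 fold change 6.06 ± 0.54, edgeR adjusted p = 0.000262). Olfml3 was at 161 ± 215 and 11.7 ± 10.2 (6 of 6, 3.003 ± 0.61, adjusted p = 0.00699) and Gpr34 at 152 ± 165 and 12.3 ± 8.99 (5 of 6, 3.03 ± 0.71, adjusted p = 0.0134). The call for Gpr34 was lost over all C1q-positive cells (1.59, edgeR adjusted p = 0.251; range over 11 alternatives 4.12e-21 to 0.251). Without the animal as a block, the count of genes was 630.

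Siglech did not separate the classes (126 ± 170 and 62.3 ± 91.4 normalised CPM, higher in 3 of 6 animals, edgeR adjusted p = 0.786), nor did Sparc pass (681 ± 1066 and 156 ± 268, higher in 4 of 6, adjusted p = 0.297). P2ry12 fell under the filter, since it had 15 UMIs in all C1q-negative immune cells and 2041 in C1q-high cells. With no filter its log2 fold change was 5.20 ± 0.37 (edgeR adjusted p = 2.17e-43), in a fit of 17810 genes of which 14.0% passed. With 6 animals so small a p does not measure the spread between them, and it is not relied on here.

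Siglech in immune cells without C1q was most frequent in MYC replicate 4, often beside genes of plasmacytoid dendritic cells. That library held 156 such cells, and 135 of them (86.5%) carried 2 or more of the plasmacytoid dendritic cell genes Ccr9, Klk1, Cox6a2, Ly6d and Pacsin1, against 5 of the 1066 cells without Siglech (0.469%). Cox6a2 was in 146 of the 156 and Ccr9 in 107. Of the 156, P2ry12 was in 5 and Tmem119, Gpr34, Olfml3 and Sparc were in none. These cells held 86.4% of the 777 Siglech UMIs of that tumour, and its C1q-high cells 0.257%. In the other libraries with such cells, 2 or more of the 5 genes were in 2 of 5 (MYC replicate 2), 11 of 22 (MYC replicate 5), 3 of 9 (SHH replicate 1) and 1 of 3 (SHH replicate 2).

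**Figure D2:**
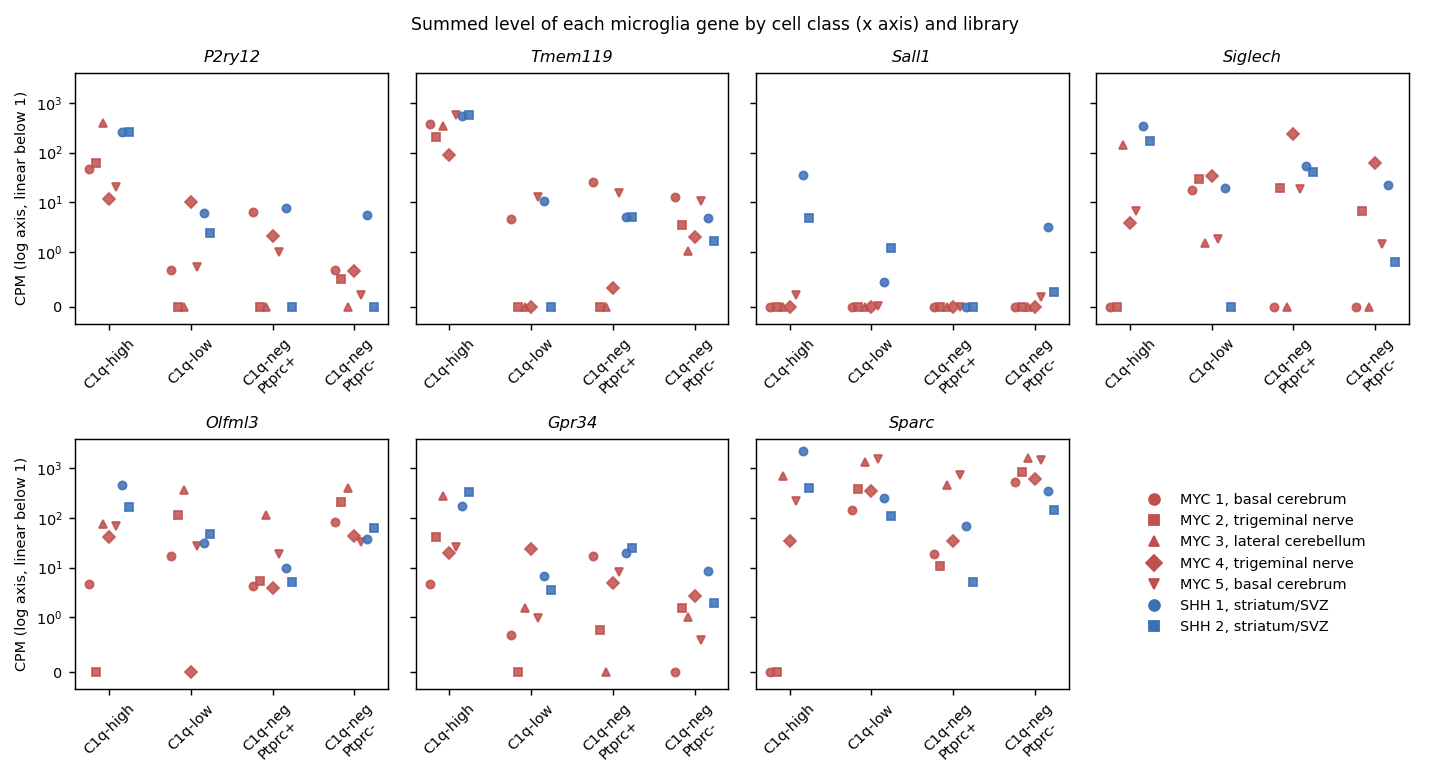
Level of each gene in CPM (y axis, log scale that is linear below 1) summed over the cells of 4 classes (x axis) in each library (red MYC, blue SHH; symbol shapes give the library and its site). P2ry12 and Tmem119 are highest in C1q-high cells of every library and Gpr34 in 5 of 7 (not MYC 1 and MYC 4), while Sparc is at 143 to 1591 CPM in C1q-negative Ptprc-negative cells of every library.

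Against C1q-negative cells without Ptprc (6411 cells), 2509 of 8431 genes passed (29.8%), with 16.0% higher and 13.8% lower in C1q-high cells; the classes did not overlap for 9.44% of all genes and for P2ry12 and Tmem119. P2ry12 was at 178 ± 164 and 1.10 ± 1.77 normalised CPM (log2 fold change 7.50 ± 0.73, edgeR adjusted p = 0.000391), Tmem119 at 491 ± 263 and 5.60 ± 4.82 (6.59 ± 0.53, adjusted p = 0.00022) and Gpr34 at 156 ± 169 and 2.28 ± 2.65 (5.98 ± 0.62, adjusted p = 0.000438), each higher in 6 of 6 animals. Siglech (3.56 ± 1.41, adjusted p = 0.0923), Olfml3 (0.64 ± 0.91, 0.639) and Sparc (-1.36 ± 1.33, 0.479) did not pass. Tmem119 and Gpr34 thus passed against both kinds of C1q-negative cell. P2ry12 passed here and fell under the filter against immune cells. Olfml3 passed against immune cells only, and Sparc against neither.

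Sparc ran in opposite directions in the subgroups. Its level in C1q-high cells was below that of the C1q-negative Ptprc-negative cells in 4 of 4 MYC animals and above it in 2 of 2 SHH animals. In CPM, those cells held 543, 831, 1591, 610 and 1468 in MYC replicates 1 to 5 and 351 and 143 in SHH replicates 1 and 2, against 0, 0, 711, 34.8 and 216 in the C1q-high cells of the MYC libraries and 2214 and 399 in those of the SHH libraries. The difference between the subgroups was -5.72 ± 1.21 on the log2 scale and did not pass (edgeR adjusted p = 0.11; 0.249% of 8431 genes did). Tmem119 (-2.42 ± 0.62, adjusted p = 0.172) and Olfml3 (-3.70 ± 1.24, 0.293) did not pass either.

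Cells with 2 or more fibroblast markers (Col1a1, Col1a2, Col3a1, Dcn and Lum) carried both matrix genes. In MYC replicate 2, 100% of 61 such cells held Sparc (3315 CPM) and 88.5% held Olfml3 (819 CPM). In MYC replicate 5, 96.3% of 1956 held Sparc and 18.3% held Olfml3. Cells with 2 or more MYC tumour markers carried both genes about as often. Sparc and Olfml3 were in 91.1% and 83.9% of 56 such cells in MYC replicate 2, and in 94.0% and 20.7% of 1296 in MYC replicate 5. Whether these are the same cells as those with fibroblast markers was not tested. In SHH replicate 1 Sparc was in 53.1% of 32 cells with 2 or more astrocyte markers and 34.3% of 201 with 2 or more SHH tumour markers. In that library 92.0% of all Sparc UMIs lay in C1q-high cells, against 40.4% in SHH replicate 2, where 50.4% lay in C1q-negative Ptprc-negative cells, and 2.61% in MYC replicate 5.

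The number of members detected per C1q-high cell was counted at 1500 UMIs. Cells with 2 or more were 3.12% (1 of 32), 9.09% (1 of 11), 44.4% (8 of 18), 3.89% (7 of 180) and 16.9% (513 of 3036) in MYC replicates 1 to 5, and 72.0% (1083 of 1504) and 55.3% (166 of 300) in SHH replicates 1 and 2. The cerebellar tumour again lay nearest to the SHH tumours, all of its 8 cells holding 3 or more. Cells with 4 or more members were 26.7% and 10.0% in SHH and 0.428% in MYC replicate 5.

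Much of the overlap in MYC replicate 5 rested on the matrix genes. Counted without Sparc and Olfml3, an alternative chosen after seeing the data, 4.51% of its C1q-high cells held 2 or more members, against 41.6% and 42.0% in SHH replicates 1 and 2 and still 44.4% in MYC replicate 3. The SHH libraries, 72.0% and 55.3% with all 7 genes, became alike.

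**Figure D3:**
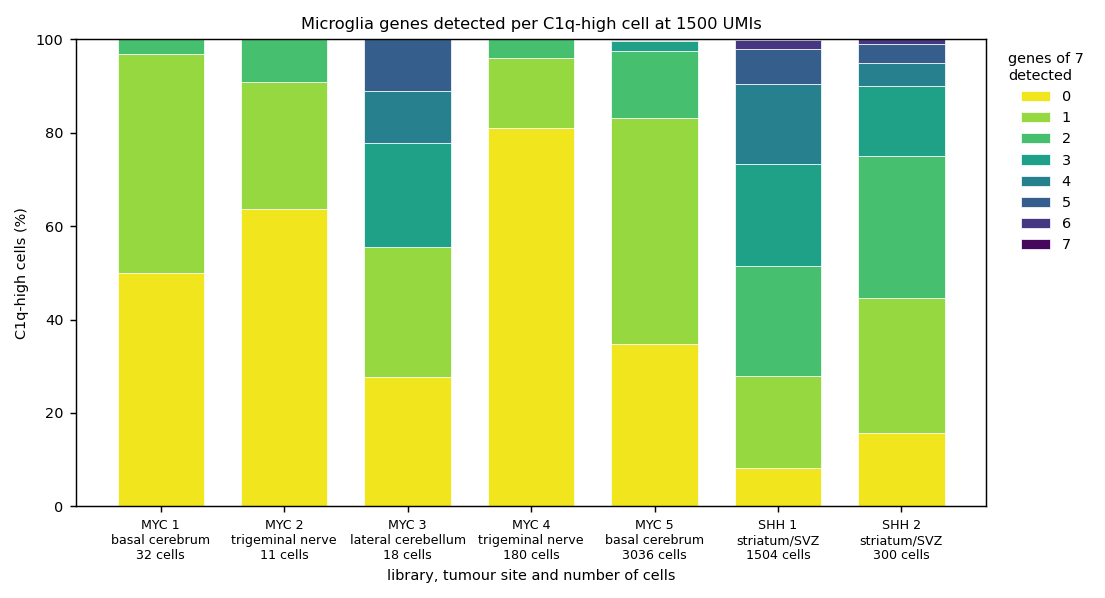
Share of C1q-high cells (y axis, percent) by the number of the 7 genes detected at 1500 UMIs (colours) in each library (x axis, with site and cells). In SHH 1, 8.31% of cells hold none of the 7 genes, against 81.1% in MYC 4.

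Pairs of members were co-detected in single cells more often than the product of their shares for most pairs. In SHH replicate 1 all 21 pairs were above 1 (observed over expected, median 1.17, highest 1.64), in SHH replicate 2, 14 of the 15 pairs with an expectation of 5 or more cells were (median 1.23), and in MYC replicate 5, 8 of 10 (median 1.196). These are descriptions over cells of 1 library, which share depth and free RNA, and carry no test. By phi, the correlation of the detections, the strongest pair in both SHH libraries was P2ry12 with Sparc, while by the ratio it was P2ry12 with Sall1 in SHH replicate 1 (1.64, against 1.35). P2ry12 with Sparc was seen in 368 of 1504 cells where 274 were expected (phi 0.30) and in 35 of 300 where 18.4 were expected (phi 0.30), while in MYC replicate 5 it was in 15 of 3036 against 12.5.

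Tmem119 was weakly coupled to the others in SHH replicate 1. Its phi with the other 6 lay between 0.02 and 0.08 there, while in SHH replicate 2 it reached 0.15 with Siglech. With Sparc it was -0.01 in SHH replicate 2 and -0.03 in MYC replicate 5. In MYC replicate 5 the highest phi among the pairs with an expectation of 5 or more was that of the matrix genes Olfml3 and Sparc (0.11; 76 cells against 42.5 expected).

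**Figure D4:**
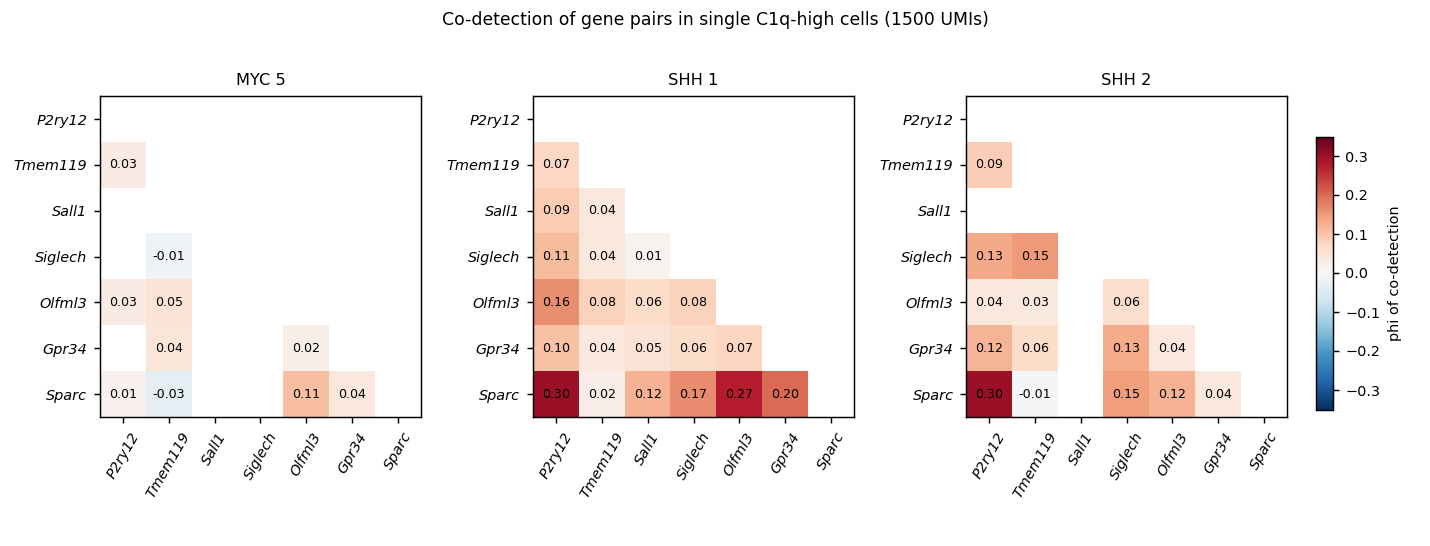
Phi coefficient of co-detection for each pair of genes (rows and columns, numbers in the cells) in single C1q-high cells at 1500 UMIs, for 3 libraries with 300 or more such cells; blank cells have an expectation under 5 cells. P2ry12 with Sparc reaches 0.30 in both SHH libraries and 0.01 in MYC 5.

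The genes whose level followed the number of members in a cell were sought among 2336 genes, by Pearson's r within each of these 3 libraries (3036, 1504 and 300 cells). Among the highest mean r were those of Cst3, a cystatin abundant in microglia (0.33), Cd81 (0.32), C1qc (0.29), C1qa (0.26), Ctsd (0.25), C1qb (0.23) and Selplg (0.23). The lowest were the MHC class II genes H2-Aa (-0.31), H2-Eb1 (-0.30) and H2-Ab1 (-0.30) with their chaperone Cd74 (-0.30), and Lgals3 (-0.21). In MYC replicate 5 these relations were weak, with r of 0.06 for Cst3 and -0.10 for H2-Aa, against 0.51 and -0.50 in SHH replicate 1 and 0.42 and -0.32 in SHH replicate 2. The C1q genes also set the gate.

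C1q-high cells with 2 or more members were then compared with those holding none, within 3 animals with enough cells of both. These were 513 and 1058 cells in MYC replicate 5, 1083 and 125 in SHH replicate 1, and 166 and 47 in SHH replicate 2. The members themselves were left out. Cells of 1500 or more UMIs were thinned to 1500, and cells under that depth were left out. In this fit 17 of 4710 genes passed (0.361%), 13 higher (0.276%) and 4 lower (0.0849%), and the classes did not overlap for 6.79% of the genes. Among 15 tested genes of the other microglia-enriched list 2 were higher, Ltc4s (185 ± 80.2 and 60.7 ± 28.9 normalised CPM; log2 fold change 1.62 ± 0.23, edgeR adjusted p = 0.0079) and Bin1 (299 ± 134 and 119 ± 44.3; 1.24 ± 0.20, adjusted p = 0.0237). The median of that list was 0.76 against -0.01 over all genes. Csf1r did not pass (0.83 ± 0.18, edgeR adjusted p = 0.0994).

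Of the lipid and damage associated genes, which microglia switch on near injury, 1 of 13 was higher, the cystatin Cst7 (314 ± 316 and 72.3 ± 54.8 normalised CPM; 2.00 ± 0.22, edgeR adjusted p = 0.00139). Of the monocyte-derived genes 1 of 7 was lower, S100a4 (21.5 ± 34.9 and 73.1 ± 102; -1.81 ± 0.33, adjusted p = 0.0446), with a list median of -1.24. None of 6 tested MHC class II genes passed, with a median of -1.09; Cd74 was at 22845 ± 16547 and 45957 ± 24798 (-1.01 ± 0.30, adjusted p = 0.351) and each of the 6 was lower in 3 of 3 animals. None of 11 transcription factor and TGF-beta genes passed (median 0.12), Spi1, which encodes PU.1, standing at 429 ± 69.5 and 429 ± 33.8.

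Interferon response genes had a median of -0.67 with 0 of 12 passing, and of 9 dissociation stress genes 1 passed, Egr1 (1.04 ± 0.20, edgeR adjusted p = 0.0446); its part in the members' values was not tested. Named after their values were seen, the 4 lower genes were Retnla (-5.18 ± 0.66, adjusted p = 0.00589), Crip1, Ltb and S100a4. The largest rise was that of the chemokine Cxcl13 (3.61 ± 0.22, adjusted p = 9.65e-06), higher in 2 of 3 animals. Without the animal as a block none passed, and with classes set without Sparc and Olfml3, 5 passed, of which 3 (Ltc4s, Cd81 and Crip1) were among the 17.

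**Figure D5:**
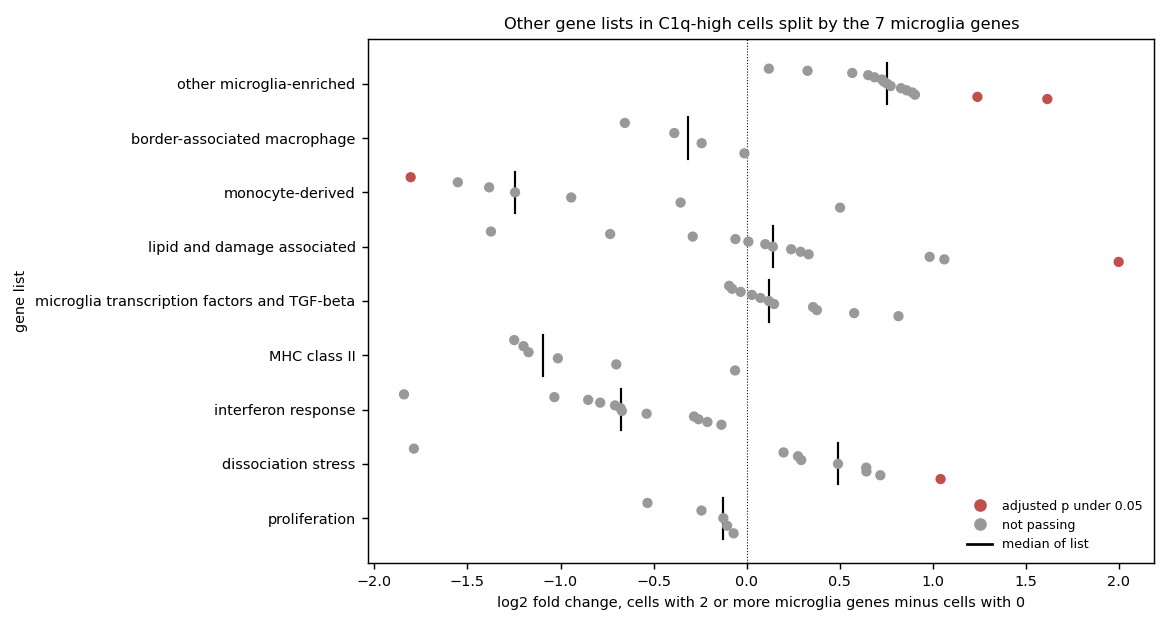
Log2 fold change (x axis) of each tested gene of 9 lists (y axis) between C1q-high cells with 2 or more of the 7 genes and cells with 0, over 3 animals; red points passed an adjusted p of 0.05 and black bars are list medians. The other microglia-enriched list lies above 0 (median 0.76) and MHC class II below (median -1.09).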

How the data were processed

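Single cells of 7 tumours were captured with the 10x Chromium 3′ kit, and dead cells stained by 7-AAD were sorted out, per the labels' protocols. The deposited tables hold raw UMI counts per gene and barcode, made by the authors with Cell Ranger 2.0.2 on mm10, per the submitters' processing notes; filters before deposit are not given in the sources used here. A gene not listed in a table was set to 0. The tables sum to 2150925 to 111985990 UMIs.

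Kept barcodes (23938 of 24433) had at least 500 UMIs and 200 genes, with mitochondrial UMIs no higher than 20%. Scrublet scores (scanpy 1.11.5) ranked doublets, and the highest 0.8% per 1000 cells were removed (2039 cells; MYC replicate 3, with 183 cells, was not scored). For shares, cells were thinned to 1500 UMIs, which left out 59 MYC and 794 SHH C1q-positive cells and kept 9700 and 2580. Of the C1q-high cells, 37 in MYC and 390 in SHH were left out, and 3277 and 1804 were kept. The loss was thus larger in SHH. MYC replicate 5 and SHH replicate 1 were sequenced in 2 runs.

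For each animal, UMI counts of a class with at least 10 cells were added up, and edgeR 4.0.16 in R 4.3.3 tested these sums (TMM, filterByExpr, quasi-likelihood), with Benjamini-Hochberg adjustment over all genes tested and a threshold of 0.05. Comparisons between classes had the animal as a block, since both classes come from the same tumour. The genes that set a class were left out of its test. Levels without the word normalised are CPM of summed UMIs; the SE is the fold change divided by the root of F. DESeq2 1.42.0 was an alternative.

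The members and lists were chosen with earlier results of these data known. Of each list up to 4 leading genes by p were to be named, and the 8 highest and 5 lowest genes by mean r. A gene that the rule names is not reported here. In a simulation of the subgroup comparison over 6930 genes, 56.7% of the 4-fold and 97.0% of the 16-fold changes were found. For trigeminal against basal cerebrum these shares were 29.9% and 88.1% over 4138 genes. Whether the shares hold for genes that vary between MYC animals as much as the members was not tested. Siglech, at 26.7 ± 46.4 normalised CPM in MYC (SD), had a log2 fold change of -4.02 and did not pass.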

Additional observations from a re-analysis of the deposited data

Results flagged for a closer look

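The animal with the trigeminal and the cerebellar tumour (MYC replicates 2 and 3 summed) stood far above the other 3 MYC animals in several values: P2ry12 in 7.29% of C1q-positive cells at 1500 UMIs and at 283 normalised CPM in C1q-high cells, Siglech in 13.8% of C1q-high cells at 1500 UMIs and at 96.2 normalised CPM, and Gpr34 at 198 normalised CPM. At 1500 UMIs Sall1 was in 0.0108% of C1q-positive cells of MYC replicate 5, which is 1 of 9225 cells (3 cells, 0.0325%, as deposited), and is not listed in the tables of the other MYC animals. Chance marks about 1 in 20 such groups, and 6 of the 22 groups examined were marked; the genes share the same cells, so the marks are not independent.

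Sparc was lower in C1q-high than in C1q-negative Ptprc-negative cells in every MYC animal and higher in both SHH animals, a difference of -5.72 on the log2 scale whose own test did not pass (edgeR adjusted p = 0.11).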

How the results depend on the processing

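The limits are few animals (4 and 2), 11 to 32 C1q-high cells in MYC replicates 1 to 3, and subgroup tied to site. Of the gene counts, 35 alternatives stayed within 1.5 times the main value and 25 did not; the causes were not tested except where fewer samples or genes entered. For MYC against SHH (84) the count was 249 with no filter on low counts, 196 without MYC replicates 2 and 3, 10 over all C1q-positive cells, 53 with sequencing runs (1 or 2) as covariate and 304 with DESeq2, and 5 to 214 when 1 library was left out, lowest without SHH replicate 1 (21 without SHH replicate 2) and highest without MYC replicate 3. For trigeminal against basal cerebrum (0) it was 55 with no filter and 3 to 100 with 1 library left out, where the lone library is assumed to vary like the others (100 without MYC replicate 1, 34 without MYC replicate 2, 58 without MYC replicate 5). For C1q-high against C1q-negative immune cells (1317) it was 2488 with no filter and 728 over all C1q-positive cells, and against Ptprc-negative cells (2509) 4611 and 82; leaving 1 library out gave 892 to 1365 and 1829 to 2636. For cells with 2 or more members against none (17) it was 107 with no filter, 60 at 3000 UMIs, 5 with classes set without Sparc and Olfml3, and 12 to 69 with 1 library left out (48 without SHH replicate 1, 69 without SHH replicate 2). With no replicate block, the animal being the block, the counts were 630, 1608 and 0. No paired analysis was possible for MYC against SHH because their replicate numbers were given in order and pair nothing.

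Directions reversed only for values that had not passed. P2ry12 between MYC sites became 1.0025 without MYC replicate 4 (-1.24 to 1.0025 with 1 library left out) and 1.18 over C1q-positive cells, where Olfml3 became 1.33. Siglech against immune cells became -0.08 without MYC replicate 3, -0.25 without SHH replicate 1 (-0.25 to 1.63) and -0.26 over C1q-positive cells. Against Ptprc-negative cells Olfml3 became -0.070 without SHH replicate 1 (-0.070 to 1.22) and Sparc 0.023 with no replicate block. By number of members, Apoe became -0.055 with doublets kept and -0.0045 without Sparc and Olfml3, and Lyz2 0.087 without SHH replicate 1 (-0.49 to 0.087) and 0.058 with no replicate block. The share difference of Sparc became 4.44 and 9.78 as given above, -27.3 to 9.78 over all libraries left out. The other share differences did not reverse: -25.2 to -43.3 percentage points for 2 or more members with 1 library left out.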
